A study of Mus musculus with 99 samples.

Results

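Microtubules are hollow polymers built from dimers of one alpha- and one beta-tubulin, and mammals carry several genes, called isotypes, for each. The isotypes differ mostly in the tail at the end of the protein, which lies on the outside of the microtubule and carries most of its modifications. In the cochlea, microtubules run through the hair cell body and form thick bundles in the neighbouring pillar and Deiters' cells, which are supporting cells. The 10 genes described here are 5 alpha isotypes (Tuba1a, Tuba1b, Tuba1c, Tuba4a and Tuba8) and 5 beta isotypes (Tubb2a, Tubb2b, Tubb3, Tubb4b and Tubb5). They were taken by name from the 55291 gene symbols of the count table, and all 10 were found.

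The levels came from full-length cDNA of 99 single cochlear cells of C57BL/6 mice. The first group was 32 wild-type outer hair cells (OHCs), the cells that amplify sound mechanically, of genotype Slc26a5-CreER/+; Ai9/+ at postnatal day 30. The second was 67 converted inner hair cells (cIHCs) of genotype Slc26a5-CreER/+; Rosa26Tbx2/+ at postnatal day 42, which are OHCs made to express the transcription factor Tbx2 and, per the labels, turning towards inner hair cells, the cells that signal to the auditory nerve. Cells of both groups were picked by hand for their red tdTomato fluorescence. All of them carried the inducible Cre driven by the prestin gene Slc26a5, which is active in OHCs. Age and genotype differed together, so their effects cannot be told apart, and no title names an endogenous inner hair cell. The treatment protocol speaks of endogenous IHCs and iOHCs, but the titles, genotypes and series text name the groups given here, and these were followed. OHCs of an earlier study, which the series text adds to these, were not analysed here. The labels name no animal. Each group was therefore summed to 1 library, and no test was made. Intervals of levels and ratios cover counting error only. They treat reads as independent, which amplified reads are not, so they are too narrow. Intervals of shares of cells treat cells as independent, though the animals they came from are not known.

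The OHCs held 5656512 to 9287413 counts each, and the cIHCs 4677682 to 13792672. A median of 6068.5 genes had reads in an OHC and 8546 in a cIHC. All 9 OHC marker genes were at least 2-fold lower in cIHCs and all 10 inner hair cell genes at least 2-fold higher. Of 10 genes shared by hair cells, 5 lay within 2-fold, 4 were lower in cIHCs and 1 was higher. Over the 10041 genes that reached the minimum level used below, 59.5% lay within 2-fold, 14.3% were lower and 26.3% higher. OHC 22 stood apart: it had the highest summed level of 11 supporting cell genes, 1785 CPM (reads per 1000000 counts of the cell), against 282.4 CPM in the next OHC, and the lowest summed level of the OHC genes, 26807 CPM. Tubb2b values that rest on it are given with and without it. Among cIHCs, cIHC 49 stood apart in the same genes, at 1320 CPM against 202.5 CPM in the next, and had the lowest sums of inner hair cell and hair cell genes, 4325 and 3448 CPM. The plot of Tubb2b against supporting cell genes sets these cells beside the others. In 4 OHCs and 55 cIHCs Xist had at least 10 CPM, in 24 and 12 Y-linked genes did, and in 4 OHCs neither did. Sex-linked reads of the cells were thus also unevenly split between the groups. How many mice of each sex were used is not known.

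Some of these genes are so alike that a read cannot always be given to one of them, which bears on every level below. The coding sequences of Tuba1a and Tuba1b were 98.3% identical, those of Tuba1b and Tuba1c 97.9%, those of Tuba1a and Tuba1c 97.1%, and those of Tubb2a and Tubb2b 96.5%. All other pairs within the alpha or beta genes had at most 85.3%. The last 60 bases of each beta coding sequence, read 5′ to 3′ from the GENCODE M21 transcripts (build GRCm38) up to and including the stop codon, are shown because they encode the tail by which the isotypes are told apart. Capitals mark bases that differ from Tubb4b, or have no counterpart in it, when the coding sequences are aligned. Tubb4b bases missing from another gene are not marked, so the rows need not line up base by base.
Tubb4b: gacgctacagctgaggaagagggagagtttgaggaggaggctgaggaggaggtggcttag
Tubb2a: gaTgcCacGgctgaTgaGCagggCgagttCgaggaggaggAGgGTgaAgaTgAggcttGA
Tubb2b: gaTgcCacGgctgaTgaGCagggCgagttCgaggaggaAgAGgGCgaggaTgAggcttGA
Tubb5: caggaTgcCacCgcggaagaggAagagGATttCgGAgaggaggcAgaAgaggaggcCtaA
Tubb3: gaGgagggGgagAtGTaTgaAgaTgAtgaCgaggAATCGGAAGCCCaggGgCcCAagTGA
Tubb3, with 29 such bases, has the tail least like that of Tubb4b. The 3 Tuba1 genes lie close together on chromosome 15 (Tuba1b at chr15:98931425-98934565 and Tuba1a at chr15:98949837-98953703, both on the minus strand, and Tuba1c at chr15:99029891-99038110 on the plus strand). Tubb2a (chr13:34074274-34078007) and Tubb2b (chr13:34126748-34130466) are likewise close together, on the minus strand of chromosome 13. Tuba4a is at chr1:75214228-75219865 (minus), Tuba8 at chr6:121210696-121226854 (plus), Tubb3 at chr8:123411424-123422015 (plus), Tubb4b at chr2:25222160-25224702 (minus) and Tubb5 at chr17:35833921-35838306 (minus).

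How much of each gene is shared was counted as the share of its 100-base stretches that also occur, on either strand, in a transcript of another gene. As the plot of shared sequence shows, this share was 73.0% for Tuba1b, 65.8% for Tuba1a and 53.4% for Tuba1c, through one another and through predicted genes such as Gm49450, whose exons overlap Tuba1a and Tuba1b. It was 36.9% for Tubb2a, 27.7% for Tubb2b and 30.6% for Tubb4b, the last most of all with the pseudogene Tubb4b-ps1. For Tuba4a it was 46.7%, all through Stk16, which overlaps it on the other strand; the pooled Stk16 level was 75.8 CPM for OHCs and 104.3 for cIHCs. Tuba8 had 12.5% through Gm15856, again on the other strand. Tubb3 and Tubb5 shared 0% with any other gene, the lowest of the members. How the counting treated reads that fit more than 1 place, and whether it used strand, is not given in the sources used here, and the library kit named does not mark strand.

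**Figure D1:**
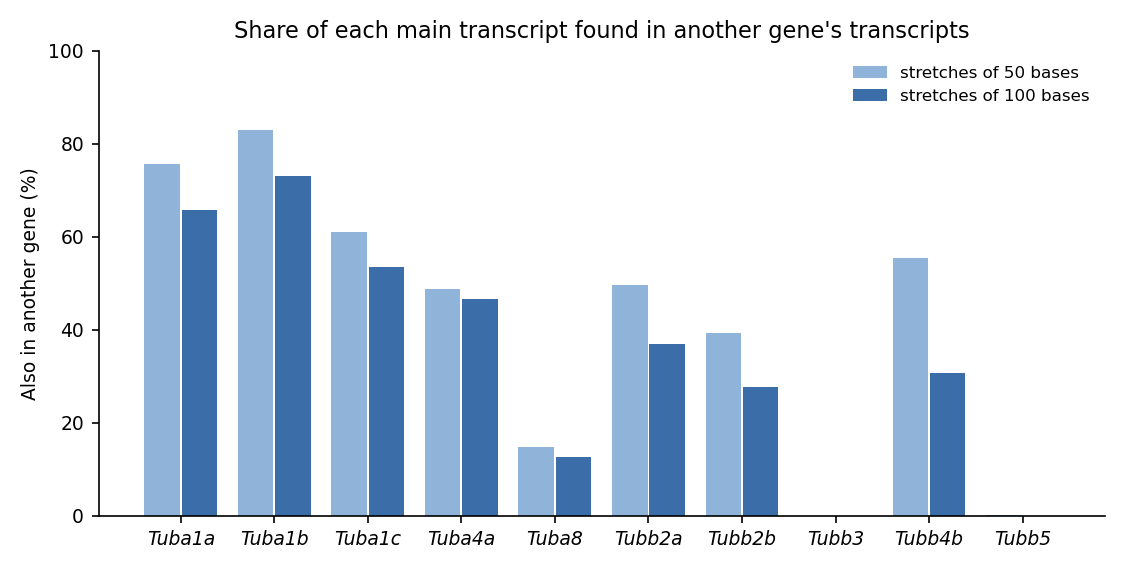
Share of each gene's main transcript, in percent, whose stretches of 50 (light bars) or 100 bases (dark bars) also occur in a transcript of another gene in GENCODE M21. The 3 Tuba1 genes have the highest bars, and Tubb3 and Tubb5 have none that can be seen.

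Of the 10 isotypes, 9 reached 10 CPM in 1 or both groups when counts were pooled, the exception being Tubb2b, and their ratios are in the plot of log2 ratios. Among these, 2 (Tubb3 and Tubb5) were at least 2-fold higher in cIHCs and none was 2-fold lower, while 7 lay within 2-fold. Over all 10041 genes with that level, 26.3% were at least 2-fold higher in cIHCs and 14.3% at least 2-fold lower, so 2 of 9 is close to the share of all genes. At 1.5-fold, 4 isotypes were higher and 2 lower, against 37.7% and 22.2% of all genes. The median log2 ratio of these 9 isotypes was 0.24, against 0.25 for all 10041 genes. Under TMM or median-of-ratios scaling the median of all genes moved by -0.22 or -0.23.

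The plot of levels by cell shows all members, of which the alpha isotypes are described first. Tuba1a, an isotype abundant in neurons, was the highest member per kilobase of exon in both groups, at 246.8 CPM per kb in pooled OHCs and 246.2 CPM per kb in pooled cIHCs. Its level per cell ran from 70.6 to 1078 CPM in OHCs, with a median of 409.8 CPM, and from 43.5 to 1413 CPM in cIHCs, with a median of 327.8 CPM. All 99 cells had reads and the groups overlapped almost completely, with a cIHC above an OHC in 44.7% of the 2144 pairs. The pooled log2 ratio of cIHC over OHC was 0.00 (95% interval -0.01 to 0.01), and its sign changed between alternatives, from -0.36 to 0.31.

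Tuba1b, the isotype found in nearly all cell types, was higher in cIHCs by less than 2-fold. It ran from 0.521 to 282.0 CPM in OHCs (median 87.1 CPM) and from 0.447 to 471.3 CPM in cIHCs (median 127.1 CPM). The groups overlapped widely, and 8 of 67 cIHCs lay above the highest OHC. Its log2 ratio was 0.61 (0.59 to 0.63), positive under all 14 alternatives. It was smaller within either set of cells by sex-linked reads, 0.37 with Xist reads and 0.32 with Y-linked reads. Tuba1c was far lower, from 0.562 to 25.1 CPM in OHCs (median 7.77 CPM) and from 0.745 to 73.1 CPM in cIHCs (median 10.7 CPM). Here 14 cIHCs lay above the highest OHC, and the log2 ratio was 0.93 (0.86 to 1.00). It passed 2-fold, at 1.06, among cells with Xist reads. The highest value was that of cIHC 49; the next was 61.6 CPM, and the log2 ratio without that cell was 0.84.

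Reads of all 3 Tuba1 genes were present in each of the 99 cells, which was so for no other members. Tuba1c counts were a median of 1.62% of the cell's Tuba1a counts in OHCs and 3.06% in cIHCs. The lowest such values were 0.545% and 0.259%. Over the 67 cIHCs, the levels of Tuba1a and Tuba1c had a Spearman correlation of 0.65 on log2(CPM + 1), the highest among 28 pairs of members with reads in at least 50% of cells. In the 32 OHCs it was 0.45, also the highest, among 15 pairs. Tuba1a and Tuba1b, the most identical pair, had 0.32 in cIHCs and 0.03 in OHCs, and Tuba1b and Tuba1c 0.54 and 0.27. Tuba1c and the less similar Tuba8 had -0.31 in cIHCs and 0.43 in OHCs, and Tuba1c and Tuba4a 0.04 and 0.42. The correlations among Tuba1 genes describe genes that share much of their sequence, and cells that share library depth. The part of misassigned reads was not tested.

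Tuba4a and Tuba8 were the alpha isotypes lower in cIHCs. These are the members whose genes do not encode the terminal tyrosine of other alpha-tubulins. Tuba8 ran from 0 to 1232 CPM in OHCs, with a median of 376.0 CPM, and from 0 to 1244 CPM in cIHCs, with a median of 214.6 CPM. Per kilobase it was the second highest member in both groups, at 205.0 and 126.2 CPM per kb. Its highest and lowest cells were alike in the groups, and an OHC was above a cIHC in 63.7% of pairs. The log2 ratio was -0.70 (-0.71 to -0.69), or -0.95 once the median of all genes is subtracted, and it was negative under all 14 alternatives.

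Tuba4a varied widely between cells, and many had none. In OHCs 11 cells had no read, 3 had 10 to 100 CPM and 14 had at least 100 CPM, with a median of 43.98 CPM and a highest value of 433.2 CPM. In cIHCs 19 cells had no read, 26 had 10 to 100 CPM and 14 had at least 100 CPM, with a median of 32.8 CPM and a highest value of 551.7 CPM. The pooled level was 99.8 CPM for OHCs against 56.7 CPM for cIHCs. The log2 ratio was -0.82 (-0.84 to -0.79). TMM and median-of-ratios scaling took it just past 2-fold, to -1.01 and -1.02. Among cells with Xist reads, which include 4 OHCs, it was 0.08, and among those with Y-linked reads -0.43.

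**Figure D2:**
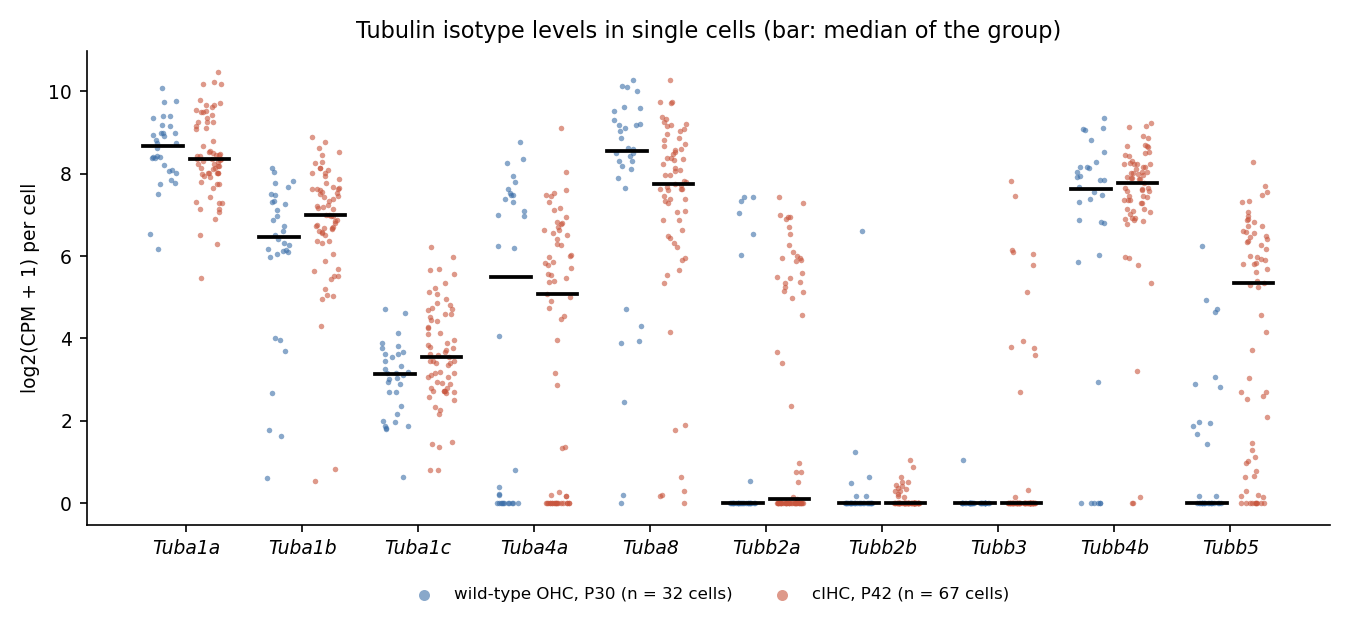
Level of each isotype in each cell as log2(CPM + 1), for 32 wild-type OHCs (blue) and 67 cIHCs (red); black bars are group medians. Tuba1a, Tuba1b, Tuba8 and Tubb4b overlap between the groups, whereas the Tubb5 median is 0 CPM in OHCs and 39.9 CPM in cIHCs, and Tubb3 is above 2 CPM in cIHCs alone.

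Among the beta isotypes, Tubb4b was the main one in both groups. It is a widely expressed isotype, also found in cilia. It ran from 0 to 656.9 CPM in OHCs (median 195.5 CPM) and from 0 to 598.9 CPM in cIHCs (median 219.9 CPM). No cIHC lay above the highest OHC, and the log2 ratio was 0.20 (0.19 to 0.22), or -0.05 relative to all genes. Reads were present in 26 of 32 OHCs and 65 of 67 cIHCs. Per kilobase, Tubb4b was the highest beta member in 26 of the 30 OHCs and 61 of the 66 cIHCs that had any beta reads.

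Tubb5, a beta isotype common in dividing and developing cells, differed between the groups in how many cells had it. Its level ran from 0 to 75.4 CPM in OHCs, with a median of 0 CPM, and from 0 to 311.1 CPM in cIHCs, with a median of 39.9 CPM. In OHCs 18 of 32 cells had no read and 4 reached 10 CPM, whereas in cIHCs 10 of 67 had no read and 39 reached 10 CPM. A cIHC was above an OHC in 75.1% of pairs, with 8.40% tied, and 22 cIHCs lay above the highest OHC. The pooled OHCs had 6.08 CPM (5.77 to 6.40) and the pooled cIHCs 55.4 CPM (54.8 to 56.01). This is 9.11-fold more, or 3.19 (3.11 to 3.26) as a log2 ratio.

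A single cell, OHC 6, held 37.8% of the Tubb5 counts of OHCs. That cell also had the highest sum of 5 Schwann cell and glia genes among OHCs, 174.1 CPM with reads of 4 of the 5, and no Tubb4b read. In cIHCs the glia sum reached at most 118.9 CPM, and the cIHC highest in Tubb5 had 0 CPM. Without OHC 6 the log2 ratio of Tubb5 was larger, 3.83. Within the 24 OHCs and 12 cIHCs that had Y-linked reads it was 2.73, from 4.81 and 32.0 CPM. Among those with Xist reads it was 6.57, with reads in 1 of 4 OHCs. The share of cells with Tubb5 reads was 43.8% in OHCs (exact Clopper-Pearson 95% interval 26.4 to 62.3) and 85.1% in cIHCs (74.3 to 92.6), or 44.8% and 81.8% after each cell was thinned to 5770000 reads. Genes in general were found in more cIHCs. Of genes with a like pooled level in both groups, 1303 had 10 to 100 CPM. On average these were found in 49.97% of the OHCs but 71.0% of the cIHCs. For 422 such genes with 1 to 10 CPM the averages were 23.8% and 31.9%. Tubb5 had no like level in the groups, with 6.08 CPM pooled in OHCs and 55.4 CPM in cIHCs.

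Tubb3, the isotype used as a marker of neurons, had the largest ratio of the members but came from few cells. In OHCs there were 9 counts, all in 1 cell at 1.07 CPM. In cIHCs 53 of 67 cells had no read, so that the median was 0 CPM, while 9 cells had 10 to 100 CPM and 2 had 176.4 and 227.4 CPM. The pooled OHC level was thus 0.037 CPM (0.017 to 0.071) and that of cIHCs 10.9 CPM (10.6 to 11.1), and the log2 ratio was 8.19 (7.27 to 9.32). The pooled cIHC level was just above the minimum of 10 CPM. Leaving out the highest cell, which held 26.1% of the counts, took it below that minimum, and the 55 cIHCs with Xist reads had 7.89 CPM. Tubb3 reads were present in 20.9% of cIHCs (11.9 to 32.6) and 3.13% of OHCs (0.079 to 16.2). They occurred in 10 of 55 cIHCs with Xist reads and in 4 of 12 with Y-linked reads.

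Markers of spiral ganglion neurons, which contact hair cells, are given beside Tubb3 and Tubb5. Of 8 such genes, 4 reached 10 CPM. Of these, 3 (Nefl, Nefm and Rbfox3) were at least 2-fold higher in cIHCs, against 26.3% of all genes, while Snap25 was not. The sum of the 8 genes ran from 0 to 910.1 CPM in OHCs (median 232.2 CPM) and from 164.1 to 979.7 CPM in cIHCs (median 573.7 CPM). Prph and Thy1 had no read in any cell of either group, Nefh had none in OHCs and Nrn1 none in cIHCs. In the cIHC with the highest Tubb3 level the neuron sum was 531.6 CPM, and 37 cIHCs had a higher one. That cell's sum of 10 hair cell genes, 3697 CPM, was exceeded in 65 of the other cIHCs. Its sum of 8 blood and macrophage genes was 298.3 CPM, all from 1 gene, against a group median of 6.40 CPM. The part of neuron or blood cell RNA in these values was not tested.

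Tubb2a, a beta isotype abundant in brain, was present in a part of the cells. It had reads in 7 of 32 OHCs and 34 of 67 cIHCs, with medians of 0 and 0.077 CPM and highest values of 171.7 and 171.8 CPM. At 10 CPM or more there were 6 OHCs and 26 cIHCs, 18.8% and 38.8%. The pooled levels were close, 23.9 and 28.2 CPM, a log2 ratio of 0.24 (0.19 to 0.28). This ratio was -0.75 among cells with Xist reads and 1.20 among those with Y-linked reads, so its direction depended on the cells used.

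Tubb2b, the copy of Tubb2a known from developing neurons and glia, was at or near 0 in all but 1 cell. OHC 22, with 96.6 CPM, held 97.1% of the 623 OHC counts, and the next OHC had 1.37 CPM. The highest cIHC had 1.08 CPM. The pooled levels of 2.57 CPM (OHCs) and 0.094 CPM (cIHCs) gave a log2 ratio of -4.78 (-5.22 to -4.37), but the other OHCs pooled had 0.076 CPM, and without OHC 22 the ratio was 0.30. OHC 22 had reads of 6 of the 11 supporting cell genes, and held 99.96% of the Epyc counts and 98.6% of the Tectb counts of OHCs. It had no Tubb2a and no Tubb5 read, and its Tuba1b level was 2.08 CPM. The cIHC with the highest sum of supporting cell genes, 1320 CPM, had 0.555 CPM of Tubb2b. Over OHCs the sum of these 11 genes had a median of 0.26 CPM, and over cIHCs 0 CPM. Slc1a3 was at 0 in OHCs and Epyc in cIHCs.

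**Figure D3:**
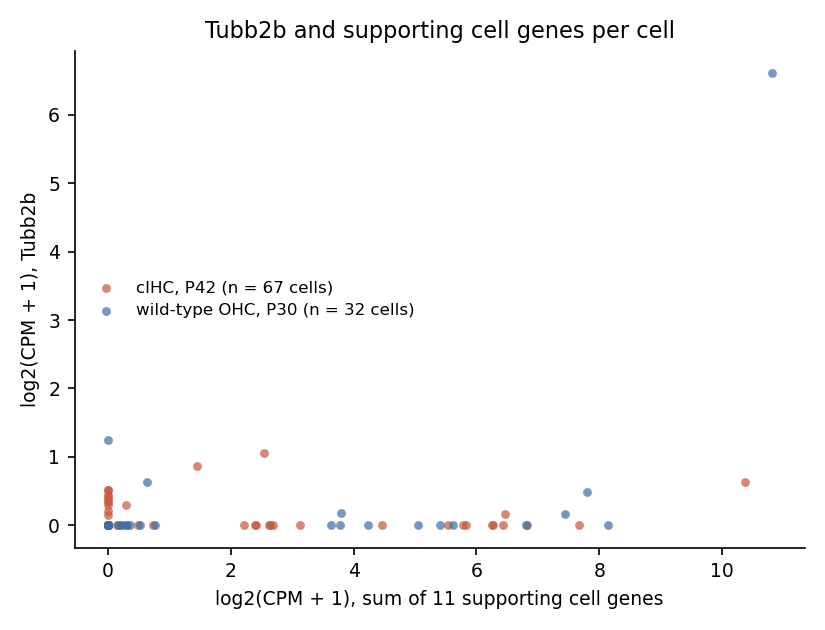
Tubb2b level against the summed level of 11 supporting cell genes in each cell, both as log2(CPM + 1), for OHCs (blue) and cIHCs (red). The single high point is OHC 22, at 96.6 CPM of Tubb2b and 1785 CPM of supporting cell genes; the cIHC at 1320 CPM has 0.555 CPM of Tubb2b.

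**Figure D4:**
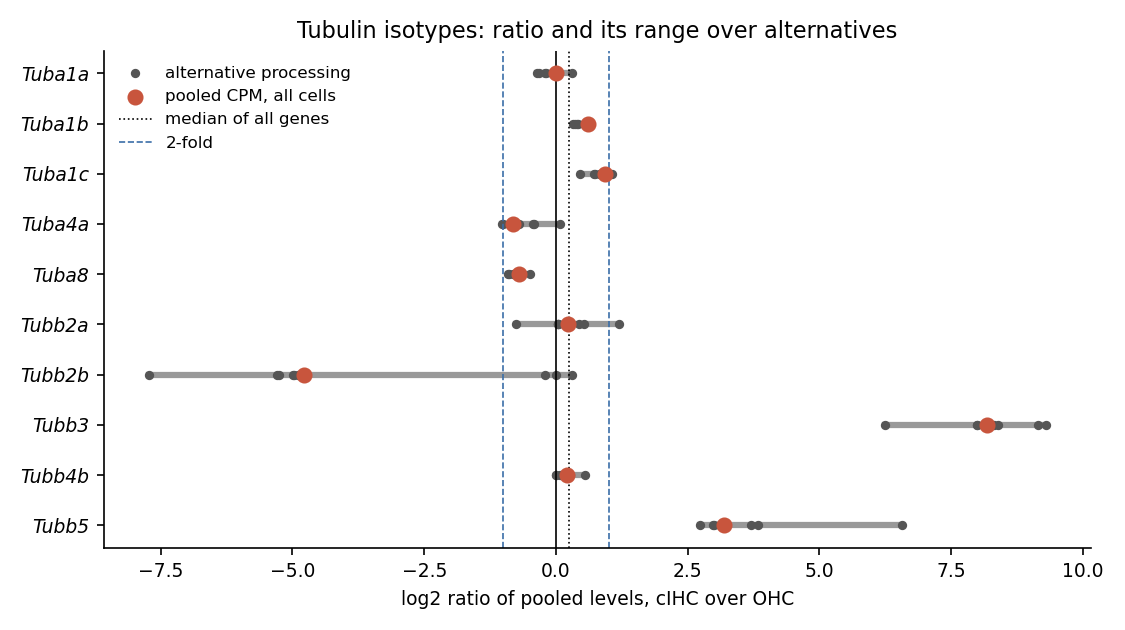
Log2 ratio of pooled levels, cIHC over OHC, for each isotype (red points), with the values under alternative processing (dark points) and their range (grey bars). Blue dashed lines mark 2-fold and the dotted line the median of all genes, 0.25. Tubb3 and Tubb5 stay beyond 2-fold under each alternative that gave them a ratio, and the bar of Tubb2b crosses 0.

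The make-up of each family was then compared, as shares of the pooled reads per kilobase of exon, which the stacked plot of shares shows. Tuba1a made up 45.9% of the alpha members in OHCs and 51.4% in cIHCs, Tuba8 38.1% and 26.3%, and Tuba1b 10.3% and 17.6%. Tuba4a made up 5.01% and 3.19%, and Tuba1c 0.708% and 1.51%. In single cells, Tuba1a was the highest alpha member per kilobase in 21 of 32 OHCs and 46 of 67 cIHCs, and Tuba8 in 10 and 17. Per kilobase the order of the 5 alpha members was the same in both groups. Without division by length Tuba8, at 41.4%, came before Tuba1a, at 39.7%, in OHCs, while in cIHCs Tuba1a had 46.2% and Tuba8 29.7%. Neighbours in it overlapped over cells: Tuba1a and Tuba8 had pooled OHC levels of 246.8 and 205.0 CPM per kb, with coefficients of variation of 52.4% and 78.6%. In cIHCs, Tubb2a, Tubb5 and Tuba4a followed each other at 17.5, 16.6 and 15.3 CPM per kb, closer than the spread over cells of any of them. The beta reads were 84.7% Tubb4b in OHCs and 74.0% in cIHCs, with Tubb5 at 1.56% and 10.8%, Tubb3 at 0.017% and 3.78%, and Tubb2a at 12.7% and 11.4%. Tubb2b made up 0.960% in OHCs, or 0.029% without OHC 22, and 0.027% in cIHCs. Without division by length, the share of Tubb5 was 2.54% in OHCs and 16.7% in cIHCs, and that of Tuba4a 8.90% and 5.90%.

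**Figure D5:**
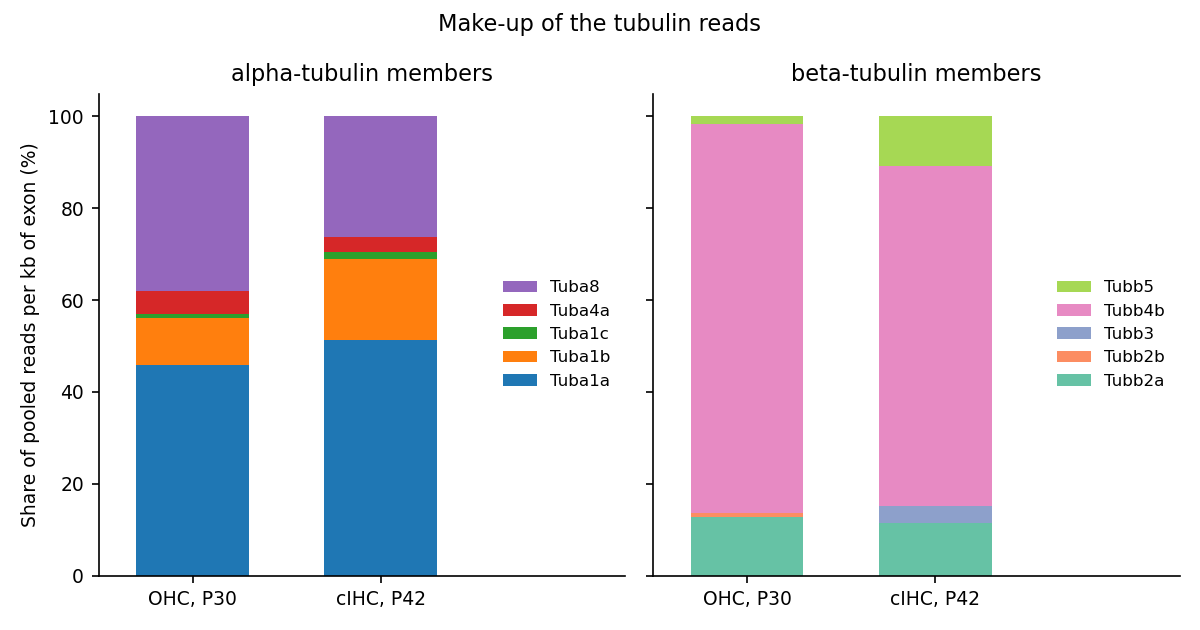
Share, in percent, of each isotype in the pooled reads per kilobase of exon of the 5 alpha members (left) and the 5 beta members (right), in OHCs and cIHCs. Tuba8 is 38.1% of the alpha reads in OHCs and 26.3% in cIHCs, and Tubb5 is 1.56% and 10.8% of the beta reads.

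Summed over members, the alpha isotypes had 1121 CPM in pooled OHCs and 961.0 CPM in pooled cIHCs, with a log2 ratio of -0.22 (-0.23 to -0.22). Beta-tubulin had 239.4 and 332.4 CPM, a log2 ratio of 0.47 (0.46 to 0.49). Per cell the alpha sum ran from 182.0 to 2344 CPM in OHCs and from 308.8 to 1966 CPM in cIHCs, and the beta sum from 0 to 656.9 and from 0 to 871.9 CPM. A cIHC was above an OHC in 42.2% of pairs for alpha and 61.5% for beta. The alpha ratio was 0.03 among cells with Xist reads, so its sign did not hold there. Of the 5 beta isotypes, an OHC had a median of 1 at 10 CPM or more (range 0 to 2) and a cIHC 2 (range 0 to 4). For the 5 alpha isotypes the median was 4 in both groups. Genes in general were found in more cIHCs too. Over all genes, a median of 6068.5 had reads in an OHC and 8546 in a cIHC.

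The genes most like 2 of the members over the 67 cIHCs were found by Spearman correlation of log2(CPM + 1). For Tuba1a, the member with the highest mean level, these were Tuba1c (0.65), Gm2606 (0.57) and Ccdc90b (0.55), among 4851 genes whose correlations had a median of 0.02 and a 99th percentile of 0.38. For Tubb3, chosen for its largest ratio, they were Dstn (0.46), Bcap29 (0.45) and Gm5559 (0.45), which rest on 14 cells with reads. The points share library depth, and over the cIHCs the Tuba1a level had a correlation of 0.36 with the number of genes with reads in the cell.

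Of the other 10 tubulin genes looked at, 4 had no read in either group. These were Tuba3a, Tuba3b, Tubal3 and Tubb1. Tubb4a had reads in 2 cIHCs, and Tubb6 had 2 counts over all OHCs and a pooled cIHC level of 3.31 CPM, from 5 cells. Tube1, the epsilon-tubulin, had a pooled level of 6.00 CPM for OHCs, all from 1 cell, and 7.34 CPM for cIHCs, from 12 cells. Of these 10 genes, 3 reached 10 CPM, and 2 of the 3 were at least 2-fold higher in cIHCs, against 26.3% of all genes. Tubg2, a gamma-tubulin, which nucleates microtubules, had no read in any OHC and 21.6 CPM in cIHCs, with reads in 35 of 67. With 3 counts taken as the OHC sum, its log2 ratio was 10.77, with an exact interval from 10.47 upwards. Reads of Tubg2 in 0 of 32 OHCs leave room for a share of 9.38% by a limit of 3 cells, or of 10.9% by the Clopper-Pearson interval. Its close copy Tubg1 had 78.5 and 119.2 CPM, with reads in 17 of 32 OHCs and 64 of 67 cIHCs, and reads of such copies can be misassigned. Tubd1, the delta-tubulin of centrioles, had a log2 ratio of 1.03, with 74.1% of its OHC counts in 1 cell. It falls outside the rule for named genes and was picked after its value was seen.

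Genes that fold tubulin lay within 2-fold for the most part. The list of 22 holds the prefoldin and CCT chaperonin subunits and the tubulin cofactors, and all 22 reached 10 CPM. Of these, 20 lay within 2-fold, 2 were higher in cIHCs and 0 were lower, with a median log2 ratio of 0.29. Within 2-fold were 59.5% of all genes. Pfdn6, a prefoldin subunit, had pooled levels of 27.5 (OHC) and 68.2 CPM (cIHC), with reads in 20 of 32 and 63 of 67 cells. The other was Tbcd, a tubulin cofactor, at 1.40 and 14.3 CPM, with 77.3% of the OHC counts in 1 cell; it was picked after its value was seen.

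Most of the measured enzymes that modify tubulin were higher in cIHCs. Of 24 listed, 17 reached 10 CPM, of which 11 were at least 2-fold higher and 1 was lower. Over all genes these shares were 26.3% and 14.3%. The list had a median log2 ratio of 1.43 against 0.25 for all genes. Atat1, which acetylates alpha-tubulin, had 15.1 and 46.8 CPM in the same order, with reads in 12 of 32 and 54 of 67 cells. Vash2, which removes the terminal tyrosine of alpha-tubulin, had 3.96 and 30.7 CPM, with reads in 3 and 36 cells. Ttl, which puts that tyrosine back, was the 1 lower gene, at 42.7 and 16.6 CPM, a log2 ratio of -1.36. Reads of Ttl were present in 16 of 32 OHCs and 38 of 67 cIHCs, with medians of 0.076 and 0.154 CPM. Agbl3, which trims glutamates from tubulin tails, had 2.66 and 24.4 CPM, but its OHC counts came from 1 cell. These 4 genes had 10 to 100 CPM in cIHCs. In that range, genes of a like pooled level in both groups were found in 49.97% of OHCs and 71.0% of cIHCs on average. The part of this difference in the counts of cells given here was not tested.

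Proteins that bind or cut microtubules were called in shares near those of all genes for higher levels. Of 33 listed, 24 reached 10 CPM, with 6 at least 2-fold higher in cIHCs, 5 lower and 13 within 2-fold, and a median log2 ratio of 0.12. Over all genes the shares were 26.3%, 14.3% and 59.5%. Mapre2, a plus-end binding protein, had 24.6 (OHC) and 131.6 CPM (cIHC), with reads in 15 of 32 and 64 of 67 cells. Map7d2, a relative of the kinesin partner Map7, had 0.083 and 28.9 CPM, with reads in 3 and 48 cells. Clip1, a plus-end linker protein, had 8.41 and 41.9 CPM, with all OHC counts in 1 cell. Clasp1, which stabilises plus ends, was lower in cIHCs, at 282.6 and 113.5 CPM, and Map7 itself was lower too, at 62.3 and 20.4 CPM. The other 3 lower genes, Map7d1, Stmn1 and Camsap3, had log2 ratios of -1.71, -1.36 and -1.31 and were picked after their values were seen.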

How the data were processed

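Read counts were measured in 32 OHCs and 67 cIHCs. The authors deposited 1 table of whole-number read counts for 55291 gene symbols in 99 cells. That the counts are not normalised was judged from the values, whose totals differ per cell. Per the submitters' processing notes, HISAT2 2.2.1, StringTie 2.2.1, featureCounts 2.0.1 and mm10 were used, with roles, annotation, strand setting and treatment of multi-mapping reads not given in the sources used here. Per the labels' protocols, cDNA was made with the Smart-Seq HT kit and tagmented. The table has 0 columns of no sample.

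Cells were assigned by their titles, and all were used; no doublet caller was run, since cells were picked singly. Within each group, no 2 cells had identical counts (0 pairs), and every pair differed far beyond sampling noise. The lowest chi-square divided by its degrees of freedom was 416.1 for OHCs, 182.7 for cIHCs. Pairs of an OHC and a cIHC were not compared. Counts were summed per group and divided by the group total (pooled CPM), and log2 ratios were cIHC over OHC. A sum of 0 was set to 3 counts, and no ratio was taken if neither sum exceeded 3 counts. Intervals, at 95%, are exact Poisson (CPM), exact conditional binomial (ratios) or exact Clopper-Pearson (shares). No p-value was computed.

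The members and gene lists were chosen with earlier results of these data known. Beyond the members, genes are named by rule: up to 3 highest and 3 lowest ratios per list, past 2-fold, at 10 CPM, with reads in at least 50% of cells of the higher group; likeness was taken among genes with reads in at least 75% of cIHCs. Exonic lengths and coordinates are from GENCODE M21, which holds 96.4% of the symbols; the authors may have counted against another annotation. Coding sequences were aligned with Biopython 1.88. The tail sequences of the alpha genes are not reported here. TMM factors came from edgeR 4.0.16 in R 4.3.3; scipy 1.17.1, pandas 2.3.3 and numpy 2.4.6 under Python 3.11.15 did the rest, and matplotlib 3.10.9 drew the figures. The ratio step was tested on simulated data. Alternatives were other poolings, scalings, sets of cells, thinning, minimum levels and lengths.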

Additional observations from a re-analysis of the deposited data

How the results depend on the processing

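The alternatives that leave out OHC 22, OHC 6 or cIHC 49, or divide by the main transcript length, were chosen after seeing the data. No paired analysis was possible because a title's number merely counts cells within its group, and no test was run. Few counts limit the low members most. The 9 OHC counts of Tubb3, all in 1 cell, give its ratio of 8.19 an interval of 7.27 to 9.32. That interval covers counting error only. After thinning the ratio was 8.31.

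The count of 2 isotypes at least 2-fold higher became 0 by the median per-cell CPM, where Tubb3 and Tubb5 have OHC medians of 0 and no ratio. It became 1 without the highest cell of each gene, because Tubb3 then misses 10 CPM, and 4 at a fold of 1.5. Among cells with Y-linked reads it was 3, with Tubb2a. Among cells with Xist reads the 2 were Tubb5 and Tuba1c, and without OHC 22 it was 1 there (Tubb5). The count of 0 lower became 1 with TMM, with median-of-ratios scaling and relative to the median of all genes (Tuba4a), 1 among cells with Xist reads and 1 with no minimum level (Tubb2b). Among cells with Xist reads without OHC 22 it was 1 as well, there Tubb2a, while Tubb2b had 0.177 CPM in the remaining 3 OHCs. The count became 2 at a fold of 1.5 (Tuba4a and Tuba8). The Tubb2b ratio of -4.78 turned to 0.0063 without the highest cells and to 0.30 without OHC 22. For Tubb3 the values of 6.25 among cells with Xist reads and 9.31 without the highest cells take an OHC sum of 0 as 3 counts. They are not strict bounds.

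The summed alpha ratio of -0.22 was -0.21 from the mean per-cell CPM, -0.19 without the highest cells, -0.41 under TMM, -0.42 under median-of-ratios scaling, -0.27 without mitochondrial genes, -0.30 without the most abundant genes, 0.029 in cells with Xist reads, -0.38 in those with Y-linked reads, -0.26 after thinning, -0.23 without OHC 22, -0.21 without OHC 6 and -0.25 without cIHC 49. The summed beta ratio of 0.47 was 0.39 from the mean and 0.33 from the median per-cell CPM, 0.49 without the highest cells, 0.28 under TMM, 0.27 under median-of-ratios scaling, 0.43 without mitochondrial genes, 0.40 without the most abundant genes, 0.53 without cells under 5000 genes, 0.54 among cells with Xist reads, 0.41 after thinning and 0.49 without OHC 22. The cause of these shifts was not tested.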
